A study of Mus musculus with 8 samples.

Results

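The 9 genes described here encode the receptors and transcription factors of the Hedgehog pathway: the cell surface proteins Boc, Gas1, Ptch1, Smo and Hhip, the cytoplasmic regulator Sufu, and the Gli factors Gli1, Gli2 and Gli3. They were chosen by symbol. Each had 1 probe set with a single gene symbol on the array, and they are 9 of the 19938 genes that could be named. Cells were keratinocytes isolated from back skin of CD1 mice, 8 weeks of age and of mixed sex. The mice were of 2 genotypes: wild type, or K14Snail, in which the keratin 14 promoter, active in basal keratinocytes, expresses the transcription factor Snail. Magnetic selection with an antibody to CD34, an antigen of the follicle bulge, or to Mts24, an antigen of the upper follicle carried by the Plet1 product, split the cells into positive and negative fractions. Every combination of 2 genotypes, 2 sorts and 2 fractions was measured on 1 Affymetrix array, 8 in all, from pools of 11 mice (CD34 sort) or 9 mice (Mts24 sort). Values are log2 levels from RMA, which corrects background, normalizes arrays and summarizes probes, so a difference of 1 is a doubling.

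In the Hedgehog pathway a secreted ligand binds Ptch1 and so relieves its block on Smo, a membrane protein that then signals through the primary cilium. Boc and Gas1 are co-receptors that help ligand to bind, and Hhip is a membrane protein that takes up ligand and dampens the response. Gli2 and Gli3 are the factors that Smo acts on, Sufu holds them back, and Gli1 is both an activator and a target, as are Ptch1 and Hhip. In skin the pathway is known for its part in hair follicle growth and in basal cell carcinoma.

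The arrays fitted their labels where this could be checked. Snai1, which encodes Snail, lay between 10.84 and 11.04 in the K14Snail arrays and between 7.86 and 8.16 in the wild type arrays. Cd34 was at 13.29 and 13.57 in the CD34 positive arrays against 6.12 and 6.27 in the negative ones, and Plet1 was at 12.64 and 12.88 in the Mts24 positive arrays against 9.16 and 9.91. The keratinocyte keratin Krt14 was at 13.28 or more in all 8 arrays. In the Mts24 sort Cd34 itself was at 10.03 and 10.51 in the negative and at 11.56 and 12.12 in the positive arrays. Each sort drew on its own pools of mice, so in any contrast between a CD34 and an Mts24 fraction the antibody and the pool cannot be told apart. With 1 array per group, genotypes served as replicates of a fraction and fractions as replicates of a genotype, in an additive limma model over all 8 arrays. Its p-values, adjusted by the Benjamini-Hochberg method over 10720 genes, therefore measure the spread between these arrays. Errors are limma's standard errors. A bulk level cannot tell more cells of a type apart from more RNA per cell.

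The pathway genes stood mostly higher in CD34 positive cells than in their negative counterpart. Here 7 of the 9 genes rose, 0 fell and 2 (Smo and Sufu) did not pass, where 13.4% of all genes tested were called higher. The median difference was 1.62 over the 9 genes and -0.03 over all genes tested. For Mts24, 5 of 9 rose and 0 fell, where 12.8% of all genes were called higher, with medians of 0.64 and 0.02. This count was 3 without the wild type Mts24 negative or positive array. Boc, Gas1, Gli2 and Gli3 rose in both sorts, whereas Gli1, Ptch1 and Hhip passed in the CD34 sort and missed the threshold in the Mts24 sort. The Mts24 call of Gli2 (0.45) passed in only 4 of 15 alternative analyses, and its value was below that of Hhip (0.77). K14Snail arrays differed from wild type arrays far less, and 0 of 9 genes passed the genotype test.

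**Figure D1:**
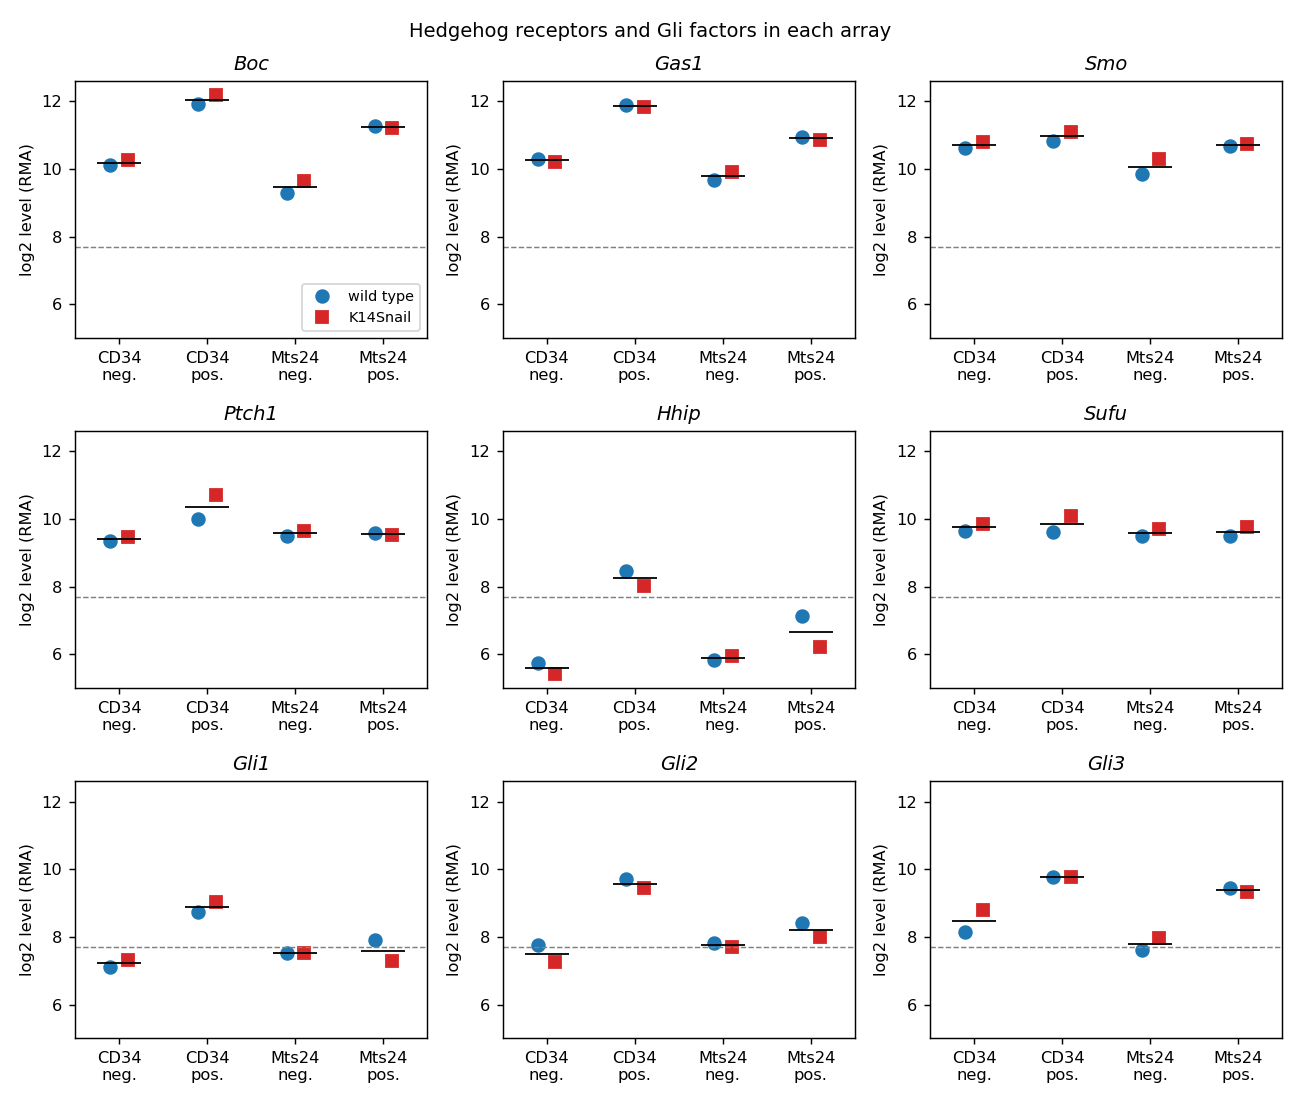
Log2 level (RMA) of each of the 9 genes in the 8 arrays, by sorted fraction; circles are wild type arrays, squares K14Snail arrays, bars the mean of both, and the dashed line the filter of 7.70. CD34 positive arrays sit above CD34 negative arrays in every panel except Sufu, whose 8 values lie between 9.49 and 10.11.

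Boc, a co-receptor of the immunoglobulin superfamily, was at 10.12 in wild type and 10.26 in K14Snail CD34 negative cells, and at 11.91 and 12.18 in the CD34 positive cells of the same genotypes. In the Mts24 sort it was at 9.28 and 9.64 in negative and at 11.26 and 11.22 in positive cells. The positive arrays lay clear of the negative ones in both sorts. Its difference was 1.85 ± 0.12 in the CD34 sort (3.61-fold, adjusted p = 0.000432) and 1.78 ± 0.12 in the Mts24 sort (3.44-fold, adjusted p = 0.00120), and both calls held in all 16 alternative analyses. The 2 differences were of similar size: they differed by 0.07, with a 95% interval from -0.33 to 0.48. The 2 positive fractions were not level, however, with Boc 0.80 ± 0.12 higher in CD34 positive than in Mts24 positive cells (adjusted p = 0.0131). That last call was lost without the K14Snail Mts24 positive array (0.65, adjusted p = 0.0783).

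Gas1, a membrane-anchored co-receptor, followed the order of Boc. Its CD34 negative arrays were at 10.30 (wild type) and 10.22 (K14Snail) and its CD34 positive arrays at 11.90 and 11.84. Mts24 negative arrays held 9.69 and 9.90, and Mts24 positive arrays 10.95 and 10.87. Each step up was many times the gap between genotypes, which was at most 0.22 in any fraction. The CD34 difference was 1.62 ± 0.11 (3.07-fold, adjusted p = 0.000480) and the Mts24 difference 1.11 ± 0.11 (2.16-fold, adjusted p = 0.00270). The gap between these differences, 0.50 ± 0.15, did not pass (adjusted p = 0.136). Gas1 was higher in CD34 positive than in Mts24 positive cells by 0.96 ± 0.11 (adjusted p = 0.00641), a call lost without the K14Snail Mts24 positive array (0.91, adjusted p = 0.0572). For these co-receptors the fractions ranked CD34 positive, Mts24 positive, CD34 negative and Mts24 negative from high to low. The fraction means of Gli3 and Smo had the same order, with Smo at 10.70 in both Mts24 positive and CD34 negative cells. The step between the 2 negative fractions did not pass (Boc 0.73, adjusted p = 0.126; Gas1 0.46, adjusted p = 0.153), while the step from CD34 negative up to Mts24 positive did (1.05, adjusted p = 0.00840, and 0.65, adjusted p = 0.0193).

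Ptch1, the ligand receptor and a target of the pathway, was level in 3 of the 4 fractions and higher in CD34 positive cells. Its CD34 positive arrays were at 10.01 in wild type and 10.71 in K14Snail. The other 6 arrays lay between 9.35 and 9.65, below both of these. The CD34 difference was 0.95 ± 0.18 (1.93-fold, adjusted p = 0.0139), made of 0.66 in wild type and 1.24 in K14Snail cells. It lost its call without the wild type CD34 negative array (1.02, adjusted p = 0.0671) or the K14Snail CD34 negative array (0.88, adjusted p = 0.0973). Its Mts24 difference was -0.02 ± 0.18 (adjusted p = 0.951), with a 95% interval from -0.46 to 0.43. The gap between the sorts, 0.97 ± 0.26, did not pass (adjusted p = 0.104), except without the wild type CD34 positive array (1.28, adjusted p = 0.0181). CD34 positive cells stood above Mts24 positive cells by 0.80 ± 0.18 (adjusted p = 0.0409). This call was lost without any 1 of 7 of the 8 arrays, with adjusted p from 0.0639 without the K14Snail CD34 positive array, where the value was 0.49, to 0.213 without the K14Snail Mts24 positive array (0.63). Without the wild type Mts24 positive array it was 0.98 (adjusted p = 0.0924). It was 0.80 without either CD34 negative array (adjusted p = 0.0780 each) or either Mts24 negative array (adjusted p = 0.0803 each), and 0.79 after repeated quantile normalization (adjusted p = 0.0542).

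Hhip, the ligand-binding inhibitor and another target, showed the widest range of the 9 genes, 3.05. It was at 8.48 in wild type and 8.02 in K14Snail CD34 positive cells, and at 5.76 and 5.43 in CD34 negative cells. Mts24 positive cells held 7.13 and 6.22, and Mts24 negative cells 5.84 and 5.97. Only the CD34 positive arrays were above 7.70, the filter value, so Hhip entered the test through the fraction where it is high and the size of its difference depends on background. The CD34 difference was 2.66 ± 0.23 (6.31-fold, adjusted p = 0.00107, and adjusted p = 0.000631 over all genes with no filter). The Mts24 difference, 0.77 ± 0.23, did not pass (adjusted p = 0.0587), except without the K14Snail Mts24 positive array (1.11, adjusted p = 0.0462). Hhip stood 1.58 ± 0.23 higher in CD34 positive than in Mts24 positive cells (adjusted p = 0.0133; without the K14Snail Mts24 positive array 1.23, adjusted p = 0.0680).

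The stretches before the annotated start sites of Ptch1 and Hhip are shown because both are known targets of Gli factors. Both were highest in CD34 positive cells, as was the mean of each of the 9 genes. They cover 250 bases each, from RefSeq on GRCm38.p6, at chr13:63565736-63565985 and chr8:80058009-80058258, both on the minus strand and written 5′ to 3′ with CpG dinucleotides in capitals.
Ptch1: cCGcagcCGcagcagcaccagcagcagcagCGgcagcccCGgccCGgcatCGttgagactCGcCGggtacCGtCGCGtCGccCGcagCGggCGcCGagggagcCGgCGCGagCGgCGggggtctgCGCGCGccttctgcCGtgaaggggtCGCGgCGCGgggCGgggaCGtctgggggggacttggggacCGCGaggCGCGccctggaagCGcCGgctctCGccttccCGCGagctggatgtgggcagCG
Hhip: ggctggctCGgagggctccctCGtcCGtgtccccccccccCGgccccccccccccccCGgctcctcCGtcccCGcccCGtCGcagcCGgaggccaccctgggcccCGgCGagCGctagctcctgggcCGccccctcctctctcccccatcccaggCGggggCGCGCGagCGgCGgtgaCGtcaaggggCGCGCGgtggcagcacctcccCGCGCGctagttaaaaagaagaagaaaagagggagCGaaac
The Ptch1 stretch holds 41 CpG and 78.4% G or C, and the Hhip stretch 28 CpG and 76.0%, against medians of 6 CpG and 52.4% over 32851 such stretches. Among the 7 of 9 genes with a RefSeq window of 300 bases around the start site, 0 hold the Gli motif GACCACCCA or the shorter CCACCCA on either strand. The shorter motif lies within the longer. Of all windows 0.253% hold the longer and 9.3% the shorter motif. These letters are therefore not in these windows, which says nothing of Gli binding elsewhere. Boc and Gli1 were not matched.

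Smo, the transducer that Ptch1 blocks, moved in the other sort. It was at 10.61 (wild type) and 10.80 (K14Snail) in CD34 negative cells and at 10.83 and 11.10 in CD34 positive cells. In Mts24 negative cells it was at 9.85 and 10.29, the lowest values of the 8 arrays, and in Mts24 positive cells at 10.67 and 10.74. Positive and negative arrays did not overlap in either sort, but the 0.27 ± 0.11 of the CD34 sort missed the threshold (adjusted p = 0.133). The Mts24 difference of 0.64 ± 0.11 passed (1.55-fold, adjusted p = 0.0126). It was lost without the wild type Mts24 negative array (0.51, adjusted p = 0.0849) or the wild type Mts24 positive array (0.52, adjusted p = 0.0717). The gap between the 2 sorts was -0.37 ± 0.15 and did not pass (adjusted p = 0.268). Sufu, the cytoplasmic brake on Gli factors, had the narrowest range, from 9.49 to 10.11. Its differences were 0.10 ± 0.10 in the CD34 sort (95% interval -0.14 to 0.35) and 0.03 ± 0.10 in the Mts24 sort (95% interval -0.22 to 0.28), so neither interval reached a difference of 1.

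Gli1, the activator whose own transcription follows pathway activity, was at 8.74 in wild type and 9.03 in K14Snail CD34 positive cells. The CD34 negative arrays were at 7.12 and 7.32, and the Mts24 negative arrays at 7.51 and 7.51. Mts24 positive cells held 7.91 in wild type and 7.29 in K14Snail, so that the single differences were 0.39 and -0.22. Gli1 thus reached the filter value in 3 arrays, the CD34 positive ones and wild type Mts24 positive, and elsewhere its level is dim and its differences depend on background. The CD34 difference was 1.67 ± 0.22 (3.17-fold, adjusted p = 0.00422, and adjusted p = 0.00328 with no filter), and the Mts24 difference 0.09 ± 0.22 (adjusted p = 0.813; 95% interval -0.46 to 0.63). Without the wild type Mts24 positive array the Mts24 difference was -0.31 (adjusted p = 0.201). The gap between the sorts, 1.58 ± 0.31, fell just short (adjusted p = 0.0530). It passed without the wild type Mts24 positive array (1.97, adjusted p = 0.0343) and with arrays centred on their medians (1.57, adjusted p = 0.0474). CD34 positive cells exceeded Mts24 positive cells by 1.29 ± 0.22 (adjusted p = 0.0207), but not without the K14Snail CD34 positive array (1.07, adjusted p = 0.0634) or the K14Snail Mts24 positive array (0.90, adjusted p = 0.0552). The other 3 fractions of Gli1 did not differ past the threshold from one another.

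Gli2, the main activator downstream of Smo, was at 7.76 (wild type) and 7.25 (K14Snail) in CD34 negative cells and at 9.70 and 9.45 in CD34 positive cells. Mts24 negative arrays held 7.81 and 7.71, and Mts24 positive arrays 8.41 and 8.00. The K14Snail CD34 negative array was under the filter value of 7.70, and the other negative arrays lay just above it. Both positive fractions lay above their negative fractions, by a wider margin in the CD34 sort. The CD34 difference was 2.07 ± 0.12 (4.21-fold, adjusted p = 0.000342) and held in all 15 alternatives. The Mts24 difference of 0.45 ± 0.12 barely passed (1.37-fold, adjusted p = 0.0414), and it passed in 4 of 15 alternatives. It was 0.31 without the wild type Mts24 negative array (adjusted p = 0.225), 0.39 without the wild type positive one (adjusted p = 0.180), 0.60 without the K14Snail negative one (adjusted p = 0.0722) and 0.51 without the K14Snail positive one (adjusted p = 0.118). It was also lost without either CD34 negative array (0.45, adjusted p = 0.0513 each) and with the pool of mice as a fixed block (0.45, adjusted p = 0.0680). The difference between the sorts, 1.62 ± 0.17, itself passed (adjusted p = 0.00995). It did not pass without the K14Snail Mts24 negative array (1.48, adjusted p = 0.0505) or the K14Snail Mts24 positive array (1.56, adjusted p = 0.0589). Between the positive fractions Gli2 differed by 1.37 ± 0.12 (adjusted p = 0.00367), a call kept in all 14 alternatives.

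Gli3, the factor known mainly as the pathway's repressor, rose in both sorts. It was at 8.15 (wild type) and 8.81 (K14Snail) in CD34 negative and at 9.77 and 9.78 in CD34 positive cells. In Mts24 negative cells it was at 7.60 and 7.96, and in Mts24 positive cells at 9.44 and 9.32. The wild type Mts24 negative array was under the filter value of 7.70, so the size of the Mts24 difference depends in part on background. The 4 positive arrays thus lay between 9.32 and 9.78, while the 4 negative arrays spread from 7.60 to 8.81. The CD34 difference was 1.30 ± 0.20 (2.46-fold, adjusted p = 0.00634) and the Mts24 difference 1.60 ± 0.20 (3.03-fold, adjusted p = 0.00500). The sorts differed by -0.30 (95% interval -0.99 to 0.38) and the positive fractions by 0.39 ± 0.20 (adjusted p = 0.251). The 3 Gli genes therefore split: the gap between sorts passed for Gli2, nearly passed for Gli1, and was small and of the opposite sign for Gli3.

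Set across the sorts, the CD34 difference exceeded the Mts24 difference past the threshold for 2 of the 9 genes, Gli2 and Hhip (1.89 ± 0.33, adjusted p = 0.0354), and 0 went the other way. Of all genes tested 2.69% passed upward and 4.74% in either direction. The count was 1 without either CD34 negative array, 3 without the wild type Mts24 positive array, and 0 without the K14Snail Mts24 negative or positive array. Between the positive fractions 6 of 9 genes were higher in CD34 positive cells and 0 in Mts24 positive cells, where 8.44% and 4.69% of all genes were. That count was 1, Gli2, without the K14Snail Mts24 positive array. Between the negative fractions 0 of 9 genes passed, where 0.0466% of all genes did, 0.0373% being higher on the CD34 side and 0.00933% on the Mts24 side. An unadjusted p under 0.05 was reached there by 4 of the 9 and by 2070 of the 10720 genes. Mts24 positive cells exceeded CD34 negative cells for 5 of 9 genes (Boc, Gas1, Gli2, Gli3 and Hhip), with 0 the other way, where 5.5% of all genes were higher and 7.48% lower. For Hhip every array in this contrast was under the filter value, so that call compares levels near background. Hhip was tested only because of its CD34 positive arrays, which are not part of this contrast. CD34 positive cells exceeded Mts24 negative cells for 8 of 9, all but Sufu, where 21.9% of all genes were higher.

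**Figure D2:**
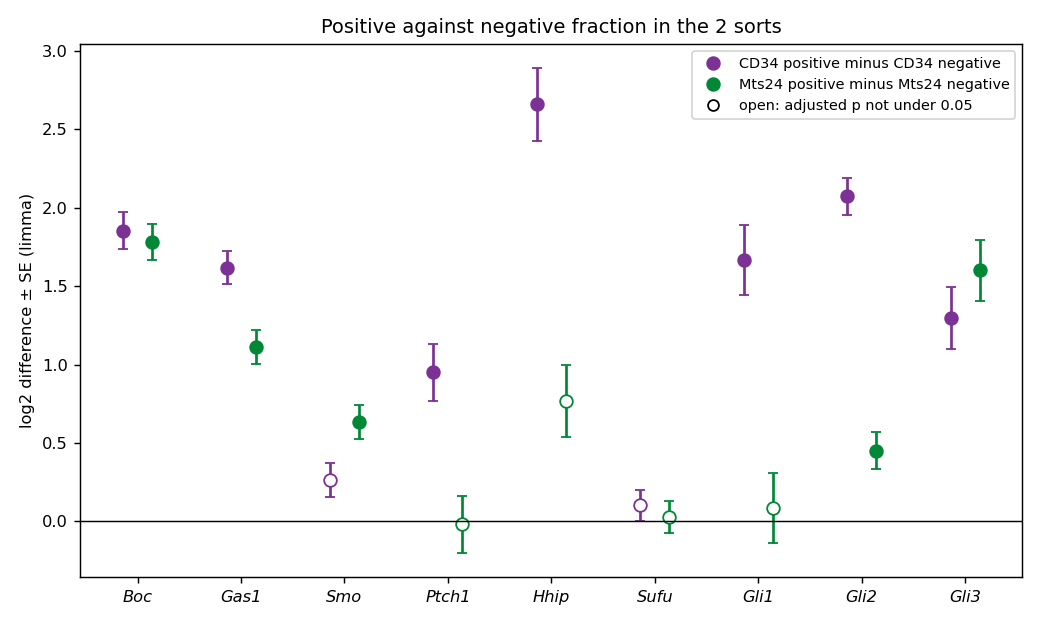
Log2 difference between positive and negative fraction for each gene, with limma's standard error, in the CD34 sort (purple) and the Mts24 sort (green), from 2 pairs of arrays each; open circles did not pass. Boc, Gas1, Gli2 and Gli3 passed in both sorts, while Hhip (2.66 and 0.77), Gli2 (2.07 and 0.45), Gli1 (1.67 and 0.09) and Ptch1 (0.95 and -0.02) lie higher in the CD34 sort.

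Single pairs of arrays have no replicate check. Of the 9 genes, 6 were at least 2-fold higher in the CD34 positive array of wild type cells and 6 in that of K14Snail cells, where 5.70% and 5.59% of all genes tested were. The counts for Mts24 were 4 (wild type) and 2 (K14Snail), where the background was 4.57% and 4.96%. The median Mts24 difference was 0.82 in wild type and 0.30 in K14Snail cells, with Hhip at 1.29 and 0.25. Counted by arrays that do not overlap, 8 of 9 genes were higher in the CD34 positive arrays and 6 of 9 in the Mts24 positive arrays. Those shares are to be read against 28.0% and 32.1% of all genes tested.

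The genotype comparison asked whether the Snail transgene changed these genes. It called 41 genes in all, 0.382% of those tested, and 0 of the 9. An unadjusted p under 0.05 was reached by 3 of the 9 and by 2175 of the 10720 genes. The Gli2 values ran from -0.51 to -0.10 over the 4 fractions, with a mean difference of -0.32 ± 0.08 (adjusted p = 0.149). Sufu was at 0.29 ± 0.07 (adjusted p = 0.133) and Smo at 0.24 ± 0.08 (adjusted p = 0.191). Hhip was at -0.40 ± 0.16 (adjusted p = 0.251), with a 95% interval from -0.80 to 0.01. Its value was -0.91 in Mts24 positive cells, where both arrays were under the filter. Boc was at 0.18 ± 0.08, Gas1 at -0.0016 ± 0.07, Gli1 at -0.03 ± 0.16 and Gli3 at 0.22 ± 0.14. The Ptch1 difference of 0.23 ± 0.13 (adjusted p = 0.341) was 0.70 in CD34 positive cells and between -0.04 and 0.14 elsewhere. In CD34 positive cells Gli1 was higher as well (0.29), but Hhip, also a target, was lower (-0.46). K14Snail values exceeded wild type values there for 6 of the 9 genes, a count that the CD34 negative pair matched (6 of 9). The Mts24 sort gave 7 of 9 for its negative pair and 2 of 9 for its positive pair. These counts were not tested. In Mts24 positive cells Gli1 was at -0.62. Within the CD34 sort alone the mean Gli1 difference was 0.25 and within the Mts24 sort -0.31, and neither passed (adjusted p = 0.548 and 0.464). A test of whether positive minus negative differences varied with genotype called 0 of 9 genes and 0 of 10720, with 1 of 9 and 1060 at an unadjusted p under 0.05. The count over all genes was not stable, since it rose when any 1 of the positive arrays was left out. The lowest adjusted p of the 9 was that of Gli3 (-0.57 ± 0.15, adjusted p = 0.316), followed by that of Hhip (-0.58 ± 0.23, adjusted p = 0.507).

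**Figure D3:**
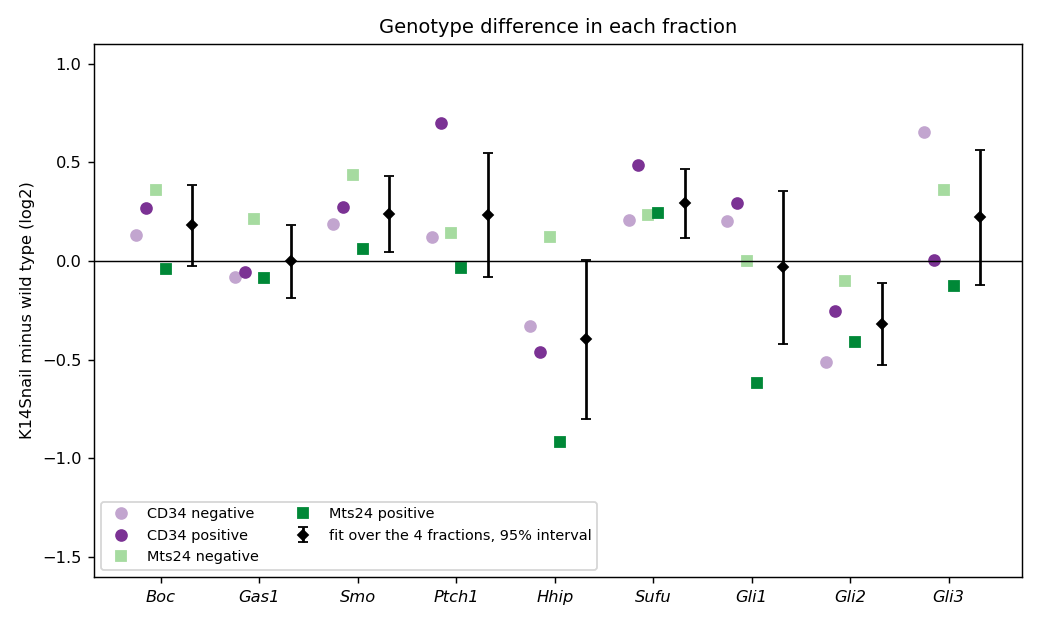
K14Snail minus wild type log2 difference of each gene in the 4 fractions (1 pair of arrays each, coloured points), and the limma estimate over the 4 fractions with its 95% interval (black). Gli2 runs from -0.51 to -0.10 over the 4 fractions, Ptch1 stands out in CD34 positive cells (0.70), and 0 of 9 estimates passed the adjusted test.

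Other marker genes moved with these differences, and their part in them was not tested. Of 10 bulge markers 9 rose in the CD34 sort (median 2.29) and 8 in the Mts24 sort (median 1.43), where 13.4% and 12.8% of all genes were higher. All 4 inner bulge markers rose in both sorts (medians 4.11 and 2.52), and of 6 upper follicle markers 0 rose in the CD34 sort and 6 in the Mts24 sort (median 2.11). These counts include the genes of the sorted antigens, Cd34 among bulge and Plet1 among upper follicle markers. The rises of Cd34 in the CD34 sort (7.24) and Plet1 in the Mts24 sort (3.22) follow from the selection itself. Fgf18 is on both the bulge and the inner bulge list, and Tcf7l1 was under the filter value in all 4 negative arrays. Of the 2 hair germ markers besides Gli1, Lgr5 rose in the CD34 sort (5.33 ± 0.25, adjusted p = 0.000226) and Cdh3 was at 0.25 ± 0.15 (adjusted p = 0.290). In the Mts24 sort both rose, Lgr5 by 0.98 ± 0.25 (adjusted p = 0.0387) and Cdh3 by 0.85 ± 0.15 (adjusted p = 0.0142). T cell markers fell in both sorts: 3 of 3 measured, with mean levels of 10.80 and 11.17 in CD34 negative, 8.75 and 9.00 in CD34 positive, 11.11 and 11.52 in Mts24 negative, and 8.17 and 8.45 in Mts24 positive arrays. Among 14 markers of fibroblasts and dermal papilla, cells in which Hedgehog targets are also active, 8 were under 7.70 in all arrays. These include Pdgfra (at most 6.79), Lum (at most 3.95), Corin (at most 6.80) and Sox2 (at most 6.39). In the CD34 sort 3 of the list rose (Col1a2, Fbln1 and Crabp1) and 1, Thy1, fell. Crabp1 reached the filter value only in the CD34 positive arrays, the group where it is high. The mean of the list was 6.90 and 6.99 in CD34 negative, 7.21 and 7.30 in CD34 positive, 7.07 and 7.07 in Mts24 negative, and 7.14 and 7.01 in Mts24 positive arrays. Touch dome and Merkel cell markers were under 7.70 in all arrays for 6 of 7, Krt8 being the exception, and 0 of the list passed. Their mean was between 6.55 and 6.77. The 5 cycling markers averaged 7.78 in wild type and 10.07 in K14Snail CD34 positive cells, the pair in which Ptch1 also differed most between genotypes, against 8.92 and 9.06 in CD34 negative cells. In the other sort they averaged 7.78 and 8.41 in negative and 9.34 and 9.85 in positive cells, wild type first.

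The rest of the pathway was read from 57 further genes grouped by role, of which 52 were named on the array and 38 passed the filter. In the CD34 sort 17 rose and 2 fell, where 26.8% of all genes were called in either direction, with a median of 0.35. The CD34 count was 5 without the wild type CD34 negative array, 8 without the K14Snail CD34 negative array and 10 without the K14Snail CD34 positive array, and 5 of the 19 calls held in every alternative run. For Mts24, 8 rose and 2 fell, where 26.3% were called, with a median of 0.09, and again 5 held in every alternative. That count was 5 without the wild type Mts24 negative array, its lowest value. For genotype 0 of 38 passed.

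**Figure D4:**
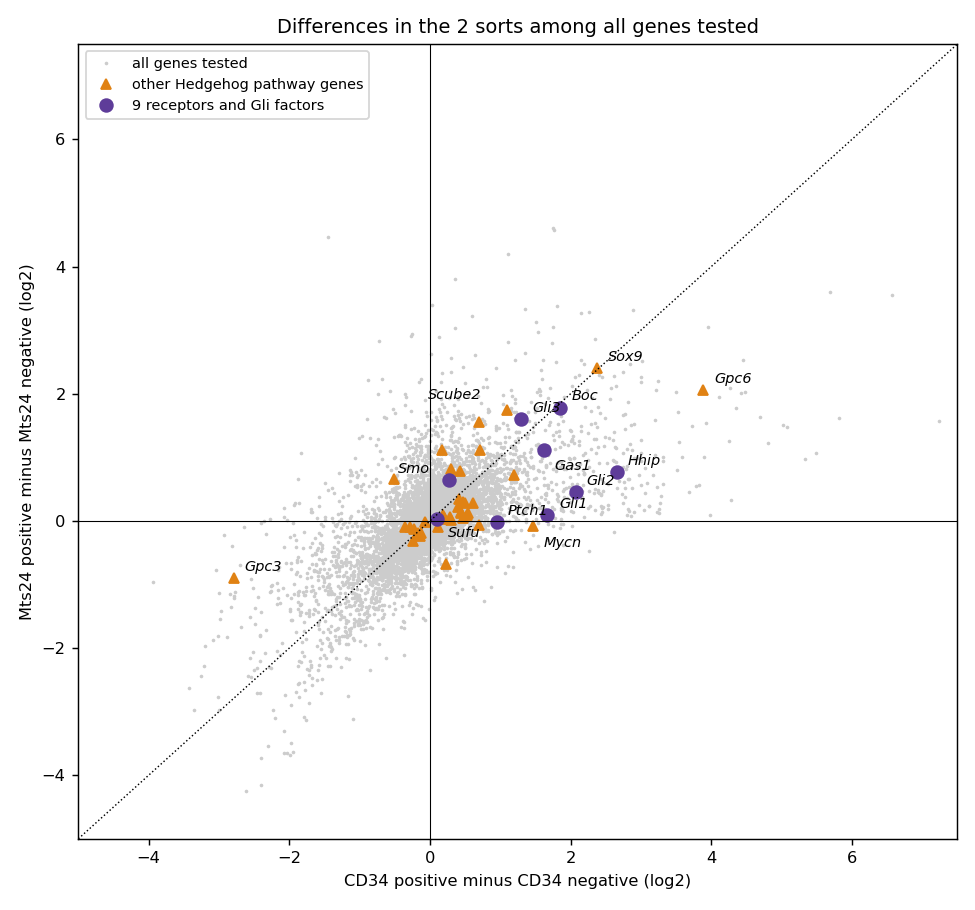
Positive minus negative log2 difference in the CD34 sort (x axis) against the Mts24 sort (y axis) for all 10720 genes tested (grey), 38 other Hedgehog pathway genes (orange triangles) and the 9 receptors and Gli factors (purple). Boc and Gli3 lie near the dotted line of equal difference, Hhip, Gli2, Gli1 and Ptch1 below it towards the CD34 side, and Gpc6 is at 3.88 and 2.05.

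Hedgehog ligands themselves were dim. Shh lay between 6.53 and 6.96 and Dhh between 6.54 and 6.77, all under the filter, and Ihh between 7.69 and 8.24 with no difference past the threshold in either sort (0.19, adjusted p = 0.466, and 0.06, adjusted p = 0.818). Of the ligand genes only Ihh was tested. Scube2, whose product helps to release ligand, rose in both sorts, from 8.60 and 9.05 to 9.94 and 9.90 in the CD34 sort (1.09 ± 0.15, adjusted p = 0.00512) and from 8.15 and 8.03 to 9.72 and 9.94 in the Mts24 sort (1.74 ± 0.15, adjusted p = 0.00233). Of the 9 genes for ligands and their release, 6 were under the filter in all arrays.

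Among other receptor genes the glypican Gpc6, a cell surface proteoglycan, had the largest rise, from 7.15 and 7.49 to 11.08 and 11.33 in the CD34 sort (3.88 ± 0.12, adjusted p = 0.000147) and by 2.05 ± 0.12 in the Mts24 sort (adjusted p = 0.00108). Its 4 negative arrays were all under the filter value, so Gpc6 was tested through the fractions where it is high and the size of its rise depends on background; with no filter the adjusted p was 4.98e-05 and 0.000613. As for Gli2, its difference between the sorts passed (1.83 ± 0.17, adjusted p = 0.00841). Gpc3, a glypican known to compete for Hedgehog ligand, went the other way. It was at 9.81 and 10.57 in CD34 negative and at 7.36 and 7.45 in CD34 positive cells, so it fell by 2.79 ± 0.34 (adjusted p = 0.00331), with -0.90 ± 0.34 in the Mts24 sort (adjusted p = 0.108). Gpc4 rose by 0.69 ± 0.14 in the CD34 sort (adjusted p = 0.0165) and by 1.55 ± 0.14 in the Mts24 sort (adjusted p = 0.00235). Its CD34 call was lost without the wild type CD34 negative array (0.69, adjusted p = 0.0969), the K14Snail CD34 negative array (0.70, adjusted p = 0.0948) or the K14Snail CD34 positive array (0.50, adjusted p = 0.0601). Cdon, the paralogue of Boc, stayed between 6.01 and 6.45 and Lrp2 between 6.09 and 6.40, all under the filter.

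Of 12 genes tested for the cilium and for transduction from Smo to Gli, 7 rose in the CD34 sort, 0 fell and 5 did not pass, with a median of 0.45, where 13.4% of all genes were higher. Tulp3, which carries membrane proteins into cilia, rose by 1.20 ± 0.09 (adjusted p = 0.000793) in every alternative. The call for the ciliary kinesin Kif7 (0.55 ± 0.12, adjusted p = 0.0254) held in 10 of 15 alternatives, with all 4 of its negative arrays under the filter value (adjusted p = 0.0316 with no filter). The call for the receptor Gpr161, a brake on the pathway (0.71 ± 0.15, adjusted p = 0.0195), held in 12 of 15. Both calls were lost without the wild type CD34 negative array (Kif7 0.48, adjusted p = 0.153, and Gpr161 0.54, adjusted p = 0.124) or the K14Snail CD34 positive array (0.44, adjusted p = 0.114, and 0.67, adjusted p = 0.0771). Kif7 was lost too without the K14Snail CD34 negative array (0.61, adjusted p = 0.0927) or either Mts24 negative array (0.55, adjusted p = 0.0552), and Gpr161 without the wild type CD34 positive array (0.75, adjusted p = 0.0545). For Mts24, 2 of 12 passed, where 12.8% of all genes were higher: Gpr161 (1.11 ± 0.15, adjusted p = 0.00645) and Tulp3 (0.72 ± 0.09, adjusted p = 0.00594). Both were lost there without the wild type Mts24 negative array (1.08, adjusted p = 0.0519, and 0.63, adjusted p = 0.0516). Of the 13 kinases and ubiquitin ligases that act on Gli proteins, 3 rose and 1 fell in the CD34 sort, and 1 rose and 2 fell in the Mts24 sort. These shares are near the 26.8% and 26.3% of all genes called. Only the casein kinase gene Csnk1e rose in both (0.43 ± 0.08, adjusted p = 0.0115, and 0.79 ± 0.08, adjusted p = 0.00279). Its CD34 call was lost without the wild type CD34 negative array (0.41, adjusted p = 0.0832), the K14Snail CD34 negative array (0.44, adjusted p = 0.0755) or the K14Snail CD34 positive array (0.40, adjusted p = 0.0557).

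Of the reported target genes outside the 9, Sox9 rose alike in both sorts, from 10.34 and 10.38 to 12.78 and 12.68 (2.38 ± 0.08, adjusted p = 0.000156) and from 9.81 and 9.82 to 12.23 and 12.20 (2.40 ± 0.08, adjusted p = 0.000437). Sox9 is also on the bulge marker list. Mycn, which encodes a growth-promoting Myc factor, was at 7.14 and 7.15 in CD34 negative cells, at 8.00 in wild type and 9.22 in K14Snail CD34 positive cells, and between 7.37 and 7.67 in the Mts24 arrays. Like Ptch1 it was raised in the CD34 positive arrays, and more so in K14Snail. Those 2 arrays alone reached the filter value, so Mycn too was tested only through the fraction where it is high, and its size depends on background. Its CD34 difference was 1.47 ± 0.30 (adjusted p = 0.0180, and adjusted p = 0.0164 with no filter), lost without the wild type CD34 negative array (1.71, adjusted p = 0.0555) or the K14Snail CD34 negative array (1.22, adjusted p = 0.121). Without the K14Snail CD34 positive array it was 0.91, and its Mts24 difference was -0.07 ± 0.30. Bcl2, an inhibitor of cell death, rose by 0.69 ± 0.11 in the CD34 sort (adjusted p = 0.00788; without the wild type CD34 negative array 0.58, adjusted p = 0.0624) and was at -0.07 in the Mts24 sort. The cyclin genes did not follow this pattern. Ccnd1 was at 0.30 ± 0.23 in the CD34 sort (adjusted p = 0.394) and Ccnd2 at -0.51 ± 0.21 (adjusted p = 0.134), while Ccnd1 rose in the Mts24 sort by 0.81 ± 0.23 (adjusted p = 0.0479, kept in 7 of 16 alternatives). Without the wild type Mts24 negative array this was 0.51 and without the wild type Mts24 positive array 0.48 (adjusted p = 0.237 and 0.204). It was 1.11 without the K14Snail Mts24 negative array (adjusted p = 0.0634) and 0.81 without either CD34 negative array (adjusted p = 0.0785 each).

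The genes most like each of the 9 were found by Pearson's correlation over the 8 arrays, as a description only, since 8 arrays were set against 10720 genes. Mycn stood first for Ptch1 (r = 0.99), ahead of Abat and Shank1. For Gli2 the first was Mapk8ip1, followed by Klhl29 and Cplane2, and Klhl29 was also first for Hhip (r = 0.99 each), ahead of Chat and Cnksr2. Ttbk2, Cnn1 and Pcdh20 were most like Gli1, and Capns1, Irx2 and 2310030G06Rik most like Gli3. Boc was nearest to Dapk2, Rsu1 and Lgr4, Gas1 to Mpzl1, Xylt1 and Rbbp9, and Smo to Itgb1, Cc2d2a and Cavin1. Among the 9 themselves the closest pairs were Gli2 with Hhip (r = 0.99), Boc with Gas1 (r = 0.98) and Gli3 with Boc (r = 0.98), whereas Sufu and Hhip were the least alike (r = 0.19).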

How the data were processed

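Log2 values per probe set were deposited in 1 table for 8 arrays. The authors used RMA to make them (submitters' processing notes); its version and the genome build are not given in the sources used here. Because RMA gives base 2, that base was assumed. Values ran from 3.04 to 14.49 and array medians from 7.32 to 7.42. RMA shrinks differences between dim probe sets, so those under the filter are uncertain. Of 28874 probe sets, 21789 had 1 symbol in the platform annotation, 1621 several and 5464 none, and those with several or none were left out. For 999 genes with several probe sets the highest mean was used. A gene was tested when at least 2 arrays reached 7.70, the median over named genes.

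The model held 4 fractions and genotype (limma 3.58.1, R 4.3.3), leaving 3 residual degrees of freedom, or 2 with the interaction of genotype and positive fraction. The threshold was an adjusted p of 0.05. No pool block was used, because the labels do not say that positive and negative fractions share mice. If they do, the 8 arrays come from 4 pools. The 4 fractions of a genotype are then not independent replicates, and the genotype p-values do not allow for this. Fits with the pool as a random block (consensus correlation -0.175, statmod 1.5.0) or a fixed block were alternatives, with others on normalization, filter, probe sets, prior and arrays left out. The fit was tested on simulated data. Those data had independent noise in each array, so they do not check the effect of shared pools. For arrays their number limits the precision. Members and lists were chosen with earlier results of these data known. The named genes are all 9 members, listed Hedgehog genes that passed or were named beforehand, checks, markers beside a result, and for each member with a range of at least 1 the 3 most correlated genes. Some listed genes that passed are named only here. In the CD34 sort Disp1, Ift88, Ift172, Iqce, Ttc21b, Btrc and Cul1 rose and Spopl fell. In the Mts24 sort Prkacb and Cul3 fell. None of these calls held in every alternative. Contrasts between CD34 negative and Mts24 positive cells, and between CD34 positive and Mts24 negative cells, were added after seeing the data.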

Additional observations from a re-analysis of the deposited data

Results flagged for a closer look

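The positive minus negative difference was not the same in the 2 sorts for Gli2 and Hhip, by a test of that difference in the additive limma model. For Gli2 the CD34 difference exceeded the Mts24 difference by 1.62 ± 0.17 (adjusted p = 0.00995), and for Hhip by 1.89 ± 0.33 (adjusted p = 0.0354), against 4.74% of all genes tested called in either direction. Each sort used its own pools of mice, so sort and pool cannot be told apart. Without the K14Snail Mts24 negative or positive array the Gli2 value was 1.48 or 1.56 and missed the threshold (adjusted p = 0.0505 and 0.0589). The Hhip call was lost without the wild type CD34 negative array (1.85, adjusted p = 0.151), the wild type CD34 positive array (1.85, adjusted p = 0.0722), the K14Snail CD34 negative array (1.93, adjusted p = 0.117), the K14Snail Mts24 negative array (1.54, adjusted p = 0.0957) or the K14Snail Mts24 positive array (1.54, adjusted p = 0.0880). Hhip was under the filter in 6 of 8 arrays.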

How the results depend on the processing

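Counts among the 9 genes kept within 1.5 times of their value in the CD34, Mts24 and positive fraction comparisons under repeated quantile normalization, centring on array medians, no filter, the mean of all probe sets, a trend in the prior variance and the pool as a random block. With the random block 7 genes passed for CD34, 4 for Mts24, 2 for their difference and 6 between the positive fractions. With the pool as a fixed block, the replicate block, 7 genes passed for CD34, 4 for Mts24 and 1 for the difference between sorts, where Hhip lost its call (adjusted p = 0.0984), as it did with a trend in the prior (1 gene; adjusted p = 0.0595). When all 8 arrays had to reach the filter value, 5 of the 9 genes were tested, and 3 passed for CD34, 3 for Mts24, 0 for the difference and 3 between the positive fractions, since Gli1, Gli2, Gli3 and Hhip were no longer tested. Leaving out arrays in turn gave 6 to 7 genes for CD34, 3 to 5 for Mts24, 0 to 3 for the difference, 1 to 6 between the positive fractions, and 0 for negative fractions, genotype and interaction in every fit. For the other pathway genes it gave 5 to 17 for CD34, 5 to 12 for Mts24 and 0 for genotype. Over all genes, the genotype test called 41, and 220 with the random block, 63 with no filter, 2 to 23 with an array left out, 0 in the CD34 sort alone and 1 in the Mts24 sort alone. For the difference between sorts it was 508, and 232 with the fixed block, 297 with the strict filter and 74 to 929 with an array left out. The CD34 count of 2868 fell to 1332 at the lowest with an array left out, the Mts24 count of 2816 to 783 and that of the positive fractions, 1408, to 257. Signs turned only for values that had not passed. With median centring Gas1 was at 0.0016 for genotype and Sufu at -0.026 for Mts24, and with quantile normalization Ihh was at -0.0070 for Mts24. In the CD34 sort alone the genotype values of Gli1, Ccnd2 and Ihh were 0.25, 0.0020 and 0.089, and in the Mts24 sort alone that of Gas1 was 0.066. With an array left out, genotype values ran from -0.074 to 0.026 for Gas1, -0.14 to 0.16 for Gli1, -0.20 to 0.068 for Ccnd2 and -0.040 to 0.0067 for Sox9. CD34 values ran from -0.026 to 0.23 for Sufu and -0.088 to 0.47 for Ihh. Mts24 values ran from -0.31 to 0.48 for Gli1, -0.20 to 0.16 for Ptch1, -0.012 to 0.069 for Sufu, -0.093 to 0.22 for Ihh, -0.17 to 0.023 for Bcl2 and -0.32 to 0.18 for Mycn. The difference between sorts ran from -0.073 to 0.22 for Boc and -0.054 to 0.20 for Sufu, and Hhip between the negative fractions from -0.66 to 0.031. Interaction values ran from -0.29 to 0.022 for Boc, -0.29 to 0.011 for Gas1, -0.72 to 0.19 for Gli1, -0.23 to 0.18 for Gli2 and -0.17 to 0.57 for Ptch1. Other causes were not tested. Levels near background limit Hhip, Gli1, the CD34 negative and Mts24 arrays of Gli2, and the Mts24 negative arrays of Gli3.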
